A study of Saccharomyces cerevisiae with 18 samples.

Results

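The genome of budding yeast was annotated before most of its genes had been studied, and many open reading frames still carry only a systematic name. Such a name is an address. Its letters give the chromosome and the arm, its number the place counted from the centromere, and the final W or C the strand (Watson or Crick). It says nothing of function, and none is given here for any frame that the array annotation and the reference leave unnamed. Yeast that meets glucose after a period without it switches from respiration and storage to fermentation and growth. In textbook outline, protein kinase A and Sch9 are activated, the stress transcription factors Msn2 and Msn4 leave the nucleus, genes of respiration and of the use of other carbon sources are repressed, and ribosome synthesis is induced. The course of a frame in time can be set beside that of named genes.

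The frames described here are those that the array annotation lists under a systematic name alone and that moved away from their level at 0 min. Of 5315 genes with a symbol on the array, 519 had a systematic name only, 20 of which were transposon frames and were left out. Of the other 499 frames, 96 (19.2%) met the rule, which asked for a log2 difference from 0 min of at least 1.5 in size at any later time, with the same sign in both cultures. The members were thus chosen by their differences from 0 min in the deposited log2 ratios. Those differences are given below as a description, with no test. The same rule took in 24.8% of the 4777 genes with another name, and 24.3% of all 5276 genes with a symbol that were considered. In the RefSeq table for assembly R64, 95 of the 96 were still listed under the systematic name, and YDL038C was listed as an older name of PRM7.

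The study followed the switch to glucose in 2 wild-type cultures, called a and b, labelled wt-matA in strain BY4742. They had been depleted of glucose by growth for a day and were then diluted into fresh synthetic complete medium with glucose. The first sample was taken directly after dilution (0 min), 4 more within the first 30 min (at 3, 7.5, 15 and 30 min) and the last at 60, 110, 150 and 300 min. Each of the 18 RNA samples was hybridised with a common reference, a pool of BY4742 wild-type RNA, on an array of 70-mer oligonucleotides read in Cy5 and Cy3, with 2 spots for each probe. A value is a log2 ratio of sample to reference, so it can be compared between times for 1 frame but not between frames. The arrays measured RNA from whole cultures, in which fewer cells with a transcript and less of it per cell cannot be told apart.

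For culture a, the dye label does not settle the direction of the first array, since the values go against it. Both 0 min samples were labelled as Cy5, yet the arrays of cultures a and b correlated at -0.91 over all gene probes at 0 min, where the cultures correlated at 0.966 at 3 min and at 0.577 at 300 min. The rule therefore turned the sign of that array. Genes that differ between sample and reference in genotype gave the same picture. The mean of 4 alpha-cell genes was 4.63 on this array as labelled, -4.05 on the other 0 min array and between -5.06 and -4.24 on the later arrays, and MET17 was 5.60, -5.0 and between -5.28 and -4.33. The a-cell genes and LYS2 lay the other way, at -2.78 and -3.31 on this array as labelled and at 2.99 and 3.29 on the 0 min array of culture b. BY4742 is an alpha strain that lacks LYS2, so these genes also go against the strain label of the samples on the other 17 arrays. With that array left as labelled, 34 frames met the rule, 22 of them among the 96, and 77 of the 96 kept the sign of their mean difference. With culture b alone, 98 frames met it, 90 of them among the 96. On the later arrays every sample of culture a carried Cy3 and every sample of culture b Cy5, and culture and dye cannot be told apart there.

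The arrays were even in quality. Between 97.9 and 99.3% of gene spots were above background and duplicate spots correlated at 0.977 to 0.999. Of the 96 frames, 92 were above background on all 36 of their spots with no spot saturated. YOR338W was above background on 35 spots, YBR085C-A and YNL208W each had 6 saturated spots, and YNL134C had 1. The frames that met the rule were brighter than the other 403 unnamed frames, with a median log2 intensity of 9.25 against 8.26, and 4777 genes with another name had a median of 10.04. They were also longer in the reference, with a median of 939 bp over 95 frames against 613.5 bp over 398. Of the 95, 3 were under 300 bp, the shortest was YOR302W with 78 bp, and the longest was YJL225C with 5665 bp.

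With the first array of culture a turned, most of the 96 frames were lower after glucose. At the time of their largest difference, 25 stood above their 0 min level and 71 below it. The median largest difference was 1.65 for the 25 and -2.11 for the 71. The extremes were YNL058C at 2.90 and YNL134C at -4.26. In culture b, of which no array was turned, YNL058C was at 2.81 and YNL134C at -4.80, also the extremes of the 96. As means of both cultures, the balance and the order rest on the turned array. Read by its dye label, 24 unnamed frames passed upward and 11 downward. At the same times YNL058C was then at -0.08 and YNL134C at -2.67, and the highest member was YDL038C at 3.13. Every unnamed frame past the limit is a member by the rule, so counts at single times are out of the 499 frames. With the array turned, 9 of the 499 were past 1.5 upward at 30 min and 49 downward, where 5.53% and 8.64% of 5276 genes were. At 300 min there were 8 and 53, where 6.90% and 9.42% of all genes were. One frame, YML131W, passed in both directions, at 1.57 at 3 min and at -2.97 at 150 min.

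**Figure D1:**
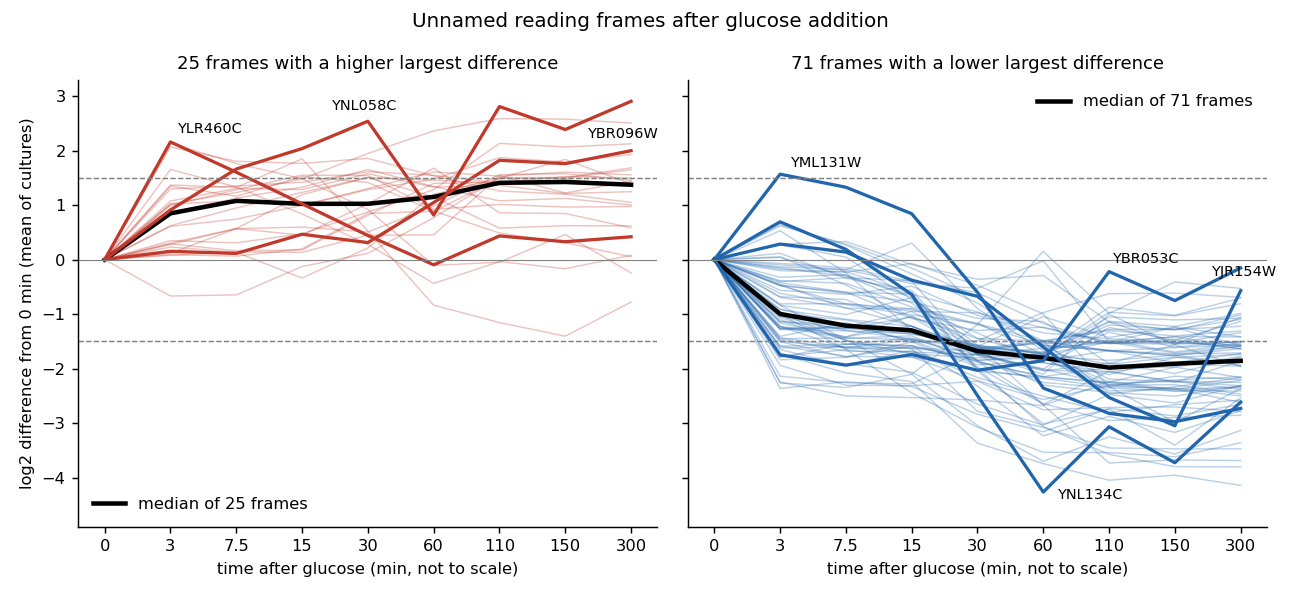
Mean log2 difference from 0 min (y axis) at each sampling time (x axis, not to scale) for the 25 frames whose largest difference was upward (left, red) and the 71 whose largest difference was downward (right, blue). Thin lines are single frames, thicker coloured lines the named ones, black lines the medians and dashed lines the limit of 1.5; the median of the 71 lower frames reached -1.98 at 110 min.

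The scale of the differences depends on how the arrays are set to one another. Known amounts of bacterial RNA were added to each sample as external controls. When each array was shifted to the median of these control spots, the median of all genes at later times against 0 min moved to 0.188 (3 min), 0.314 (30 min) and 0.479 (300 min), having been within 0.03 of zero. All 25 higher frames still passed in their direction, with a median largest difference of 2.09. Of the 71 lower frames, 46 did, and the median over the 71 was -1.72. On that scale 101 unnamed frames met the rule, 56 upward and 46 downward with 1 in both directions, so the excess of lower frames holds relative to the median gene and not on the scale of the added RNA. At the time of its largest difference, each of the 96 had the same sign on both scales.

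The frames came to the limit at different times. Among the 71 lower frames, 16 were first past it at 3 min. Another 6 passed at 7.5 min and 4 at 15 min, and 25, the largest number, at 30 min. The last were 9 frames each at 60 min and 110 min and 2 frames at 150 min. Among the 25 higher frames, 4 were first past it at 3 min, 6 at 30 min and 6 at 110 min. Of the lower frames, 12 stayed past it at all 8 later times, and no higher frame did. The largest difference itself came late for the lower frames, at 60 min or later in all but 14 (3 at 15 min and 11 at 30 min).

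YNL058C had the highest difference with the array turned. Its log2 ratio was -2.99 and -2.78 at 0 min in cultures a and b, -2.08 and -1.86 at 3 min, -0.36 and -0.33 at 30 min, -2.14 and -1.99 at 60 min, -0.04 and -0.11 at 110 min and 0.01 and 0.03 at 300 min. The course was broken in both cultures by the same trough at 60 min, where the difference from 0 min was 0.82, against 2.54 at 30 min and 2.81 at 110 min. The named genes closest to it over the 9 time means were KIN3, a protein kinase (Pearson r = 0.995), HOF1, which acts at the bud neck in cytokinesis (0.983), and CHS2, the chitin synthase of the primary septum (0.980). All had the trough, with differences from 0 min at 60 min of 0.83 for KIN3, 1.15 for HOF1 and 1.23 for CHS2. These correlations, like the others given here, rest on 9 points that share arrays and have no test.

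YNR021W was higher at each time up to 110 min than at the time before. The ratio was -2.79 and -2.23 at 0 min in cultures a and b, -1.58 and -1.39 at 3 min, -0.63 and -0.48 at 30 min, 0.05 and 0.11 at 110 min and 0.06 and -0.06 at 300 min, and no later sample overlapped the 0 min samples. Its difference from 0 min was 1.02 at 3 min and 2.59 at 110 min. The closest named genes were GUS1, the glutamyl-tRNA synthetase (r = 0.998), SCP160, an RNA-binding protein of polysomes (0.997), and MDM20, a subunit of an N-terminal acetyltransferase (0.997).

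Other frames had an early peak. YLR460C was -0.61 and -0.68 at 0 min in cultures a and b, 1.63 and 1.40 at 3 min, 0.42 and 0.35 at 15 min, -0.70 and -0.77 at 60 min and -0.21 and -0.23 at 300 min. The named genes closest to it were TRR1, thioredoxin reductase (r = 0.959), GRE2, a methylglyoxal reductase (0.959), and SNQ2, a multidrug transporter (0.958). Of these, GRE2 and SNQ2 were 2.19 and 2.07 above 0 min at 3 min. YLR108C (2.13), YBL081W (2.07) and YCR102C (1.65) also had their largest difference at 3 min. YLR108C and YCR102C were at -0.11 and -0.44 by 60 min, while YBL081W was still at 1.54 then and at 1.05 at 300 min.

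YML131W shared the early peak and then went far below its 0 min level. It stood at 2.19 and 2.39 at 0 min in cultures a and b, 3.69 and 4.0 at 3 min, 2.99 and 3.24 at 15 min, -0.14 and -0.01 at 60 min and -0.54 and -0.35 at 300 min. The values of the 2 cultures lay within 0.32 of each other at each of these times. YNL208W also changed sign, at 1.85 above 0 min at 15 min and at -1.40 at 150 min. Its spots were saturated on both 15 min arrays and on the 7.5 min array of culture b, so its level there may be higher than measured.

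Other higher frames were late. YBR096W had a difference from 0 min of 0.31 at 30 min, 1.05 at 60 min and 2.0 at 300 min. YOL057W was at 0.87, 1.28 and 2.12 at the same times, and YGR026W, which was -0.67 at 3 min, was at 0.12, 0.77 and 1.68. YDL241W had its largest difference, 1.84, at 150 min. YPL245W was already at 1.02 at 3 min and reached 1.93 at 300 min. YJL225C peaked at 60 min at 1.68 and was at 0.58 at 300 min.

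**Figure D2:**
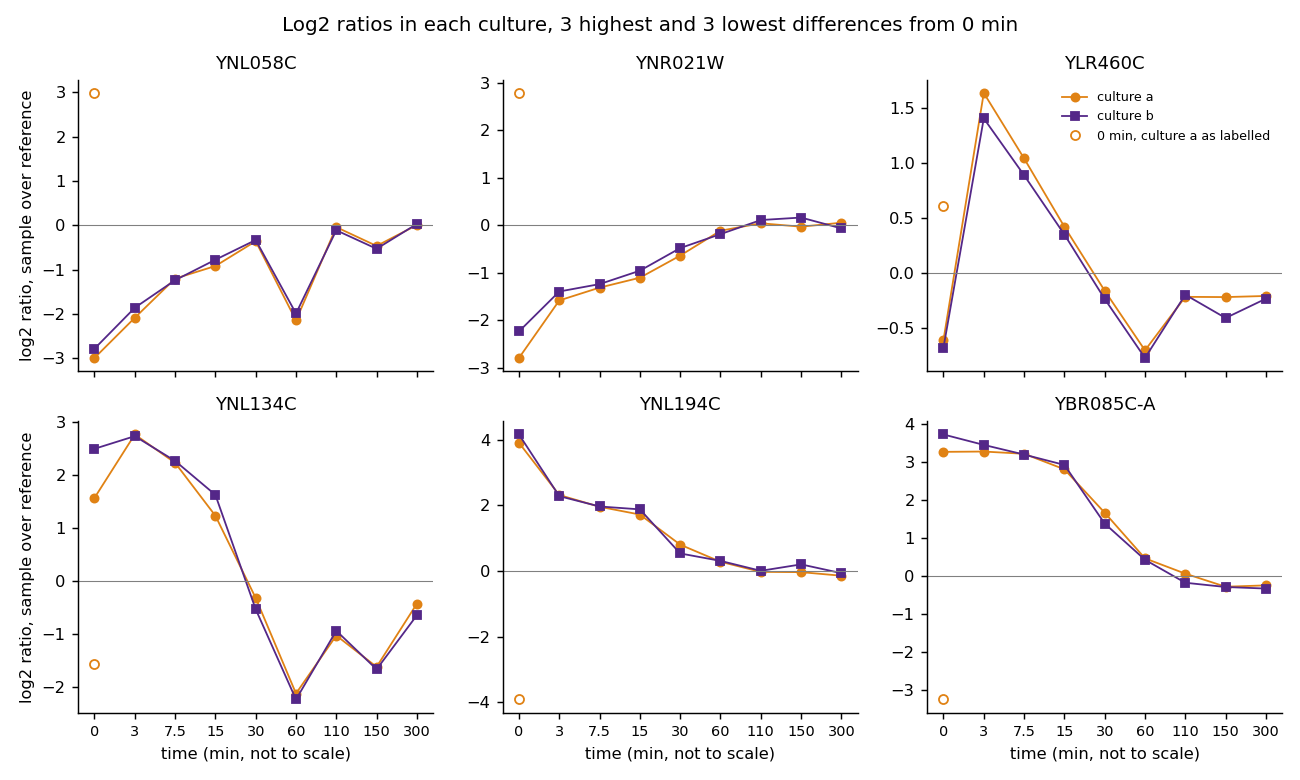
Log2 ratio of sample to reference (y axis) at each time (x axis, not to scale) in culture a (circles) and culture b (squares) for the 3 frames with the highest and the 3 with the lowest differences from 0 min. Open circles show culture a at 0 min with the sign its dye label gives, for example 2.99 for YNL058C, where the turned value is -2.99 and culture b gave -2.78.

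YNL134C had the lowest difference with the array turned and among the 96 also as labelled, and its decline did not start at once. The ratio was 1.57 and 2.50 at 0 min in cultures a and b, 2.77 and 2.74 at 3 min, 1.23 and 1.63 at 15 min, -0.32 and -0.53 at 30 min, -2.13 and -2.24 at 60 min, -1.03 and -0.94 at 110 min, -1.62 and -1.67 at 150 min and -0.43 and -0.65 at 300 min. The cultures were closer together at each of the later times listed than at 0 min. The difference at 60 min was -3.72 in culture a and -4.80 in culture b. Its closest named genes had far smaller differences: ISA2, of mitochondrial iron-sulfur cluster assembly, reached -1.16 (r = 0.986), ECM27 -0.57 (0.983) and FYV6 -0.79 (0.982). In the reference, FYV6 lies next to YNL134C, upstream on the same strand.

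YNL194C and YNL195C are neighbours on the same strand, the only members that lie next to another member in the reference. For YNL194C the ratio was 3.91 and 4.16 at 0 min in cultures a and b, 2.32 and 2.28 at 3 min, 0.81 and 0.54 at 30 min, and -0.14 and -0.06 at 300 min. It was past the limit at all 8 later times and -4.14 at 300 min, while YNL195C came to -3.47. The 2 courses correlated at 0.991 and differed by at most 0.756 in their difference from 0 min. The named genes closest to YNL194C were CAT8, the activator of gluconeogenic genes (r = 0.998), IDP2, the cytosolic isocitrate dehydrogenase (0.997), and ATP22, a translation factor for a mitochondrial ATP synthase subunit (0.997), with largest differences of -3.85, -5.14 and -1.04.

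YBR085C-A had differences from 0 min of -0.15 at 3 min, -0.64 at 15 min and -3.06 at 60 min. Its values were 3.26 and 3.72 at 0 min in cultures a and b, 3.27 and 3.44 at 3 min, 2.80 and 2.91 at 15 min, 1.66 and 1.37 at 30 min, 0.46 and 0.42 at 60 min and -0.26 and -0.34 at 300 min. Its spots were saturated on both 0 min arrays and on the 7.5 min array of culture b, so its level there may be higher than measured and its difference from 0 min larger in size. The closest named genes were XBP1, a transcriptional repressor of stress and quiescence (r = 0.996), GTR1, a small GTPase upstream of TORC1 (0.996), and IRA2, which inactivates Ras (0.996). YNR014W was at -0.84 at 3 min and -0.70 at 15 min, and had come to -1.56 at 30 min and -3.73 at 110 min.

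The remaining frames among the 12 with the lowest differences were YHR138C (-3.70), YGR067C (-3.62), YEL073C (-3.40), YER079W (-3.23), YDL199C (-3.16), YJR154W (-3.05) and YLR345W (-3.04). YHR138C, YER079W, YDL199C and YLR345W were past the limit from 3 min on, with YHR138C at 2.92 and 2.85 at 0 min in cultures a and b, 0.69 and 0.57 at 3 min and -0.67 and -0.91 at 60 min. YGR067C went down in steps, at -1.0 at 3 min, -2.44 at 15 min and -3.53 at 60 min. YEL073C was at -0.32 at 3 min and at -3.01 at 60 min.

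A few lower frames came back. YJR154W was 1.12 and 1.38 at 0 min in cultures a and b, -1.85 and -1.73 at 150 min and 0.61 and 0.76 at 300 min, so both cultures had left their lowest level by the last sample. YBR053C was -0.01 and -0.22 at 0 min, -1.96 and -1.75 at 3 min, -2.17 and -2.10 at 30 min, and -0.35 and -0.18 at 300 min. YKR075C, with 1.95 and 1.90 at 0 min, had its lowest ratios at 15 min, -0.18 and -0.17, and stood at 2.03 and 2.13 at 60 min. It was lower again at 110 min, at 1.07 and 0.80, and stood at 1.43 and 1.37 at 300 min. In each of these the return was seen in both cultures.

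The cultures differed by a median of 0.177 at the time of a member's largest difference, and by no more than 0.5 in 87 of the 96. The widest gaps came from the 0 min arrays. YNL190W was 1.12 at 0 min in culture a with the array turned (-1.12 as labelled) and 3.21 in culture b, but -0.46 and -0.41 at 60 min, so its largest difference was -1.55 in culture a and -3.81 in culture b. YDL124W was 0.11 and 1.86 at 0 min and -1.01 and -1.06 at 30 min, giving -1.07 and -2.96. The size of both rests on which culture is read. For YNL190W in culture a the sign rests on the turned array as well, since -0.46 at 60 min lies above the -1.12 that the dye label gives at 0 min.

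The rule used every difference from 0 min, so changes were tested only among the 16 later arrays, with limma over 6338 genes. The limits were those of the Methods, a fold change over 1.7 together with a Benjamini-Hochberg adjusted p below 0.01. These arrays had also entered the rule, so the counts below are not independent of the choice of members. A moderated F test found a change among the 8 later times in 89 of the 96 frames, where 61.1% of all genes had one.

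Between 3 and 30 min, 6 of the 96 frames rose, where 2.82% of all genes did, and 30 fell, where 7.21% did. Of the other 403 unnamed frames, 6 rose and 8 fell. The median difference, 30 min minus 3 min, was -0.50 over the 96 and -0.00483 over all genes. YNL134C fell most, by 3.18 ± 0.12 (SE; adjusted p = 3.65e-08, limma), with -0.32 and -0.53 at 30 min in cultures a and b, against 2.77 and 2.74 at 3 min. YML131W (-2.17 ± 0.14), YLL053C (-2.10 ± 0.16), YGR067C (-2.08 ± 0.12), YOR062C (-1.99 ± 0.10) and YBR085C-A (-1.84 ± 0.11) followed, all with an adjusted p of 3.14e-06 or less in limma. Of the 25 higher frames, 4 fell here as well, YLR460C by 1.72, YCR102C by 1.37, YLR108C by 1.22 and YNL208W by 0.80. No frame of the 71 lower ones rose.

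The 6 that rose were led by YNL058C, at 1.63 ± 0.08 (SE; adjusted p = 2.29e-07, limma), with -0.36 and -0.33 at 30 min in cultures a and b, against -2.08 and -1.86 at 3 min. YKL069W rose by 1.39 ± 0.12, YNR021W by 0.93 ± 0.10, YGR039W by 0.88 ± 0.10, YCR051W by 0.81 ± 0.08 and YGR026W by 0.78 ± 0.13. The last 2 lay near the fold limit. Without the 3 min array of culture b YCR051W came to 0.68, and YGR026W came to 0.64 without the 3 min array of culture a and to 0.68 without the 30 min array of culture b, each below the limit. With the arrays shifted to the external controls, which moved the median gene to 0.124, the counts were 9 that rose and 22 that fell.

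Between 30 and 300 min, 9 frames rose, where 8.17% of all genes did, and 21 fell, where 6.14% did. Of the other 403 unnamed frames, 16 rose and 15 fell. The median difference, 300 min minus 30 min, was -0.29 over the 96. The largest rise was that of YBR053C, 1.87 ± 0.12 (SE; adjusted p = 7.24e-07, limma), with -0.35 and -0.18 at 300 min in cultures a and b, against -2.17 and -2.10 at 30 min. YBR096W rose by 1.69 ± 0.06, YGR026W by 1.57 ± 0.13, YOL057W by 1.25 ± 0.09, YDL241W by 1.17 ± 0.13 and YNL046W by 0.99 ± 0.13. Of the 9, 7 belonged to the 25 higher frames, and YBR053C and YJL070C (0.89 ± 0.14) to the 71 lower ones.

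The largest fall in this interval was that of YML131W, by 2.13 ± 0.14 (SE; adjusted p = 1.02e-06, limma), with -0.54 and -0.35 at 300 min in cultures a and b, against 1.72 and 1.64 at 30 min. YNR014W fell by 2.12 ± 0.13, YBR085C-A by 1.81 ± 0.11, YOR338W by 1.73 ± 0.30, YDL038C by 1.36 ± 0.22 and YNL208W by 1.32 ± 0.20. YOR338W had the widest error, and its cultures were at 0.50 and 1.67 at 150 min and at 0.95 and 1.09 at 300 min. With the arrays shifted to the external controls, which moved the median gene to 0.126, 16 frames rose and 14 fell, so the balance of the 2 directions in this interval depends on that scale.

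**Figure D3:**
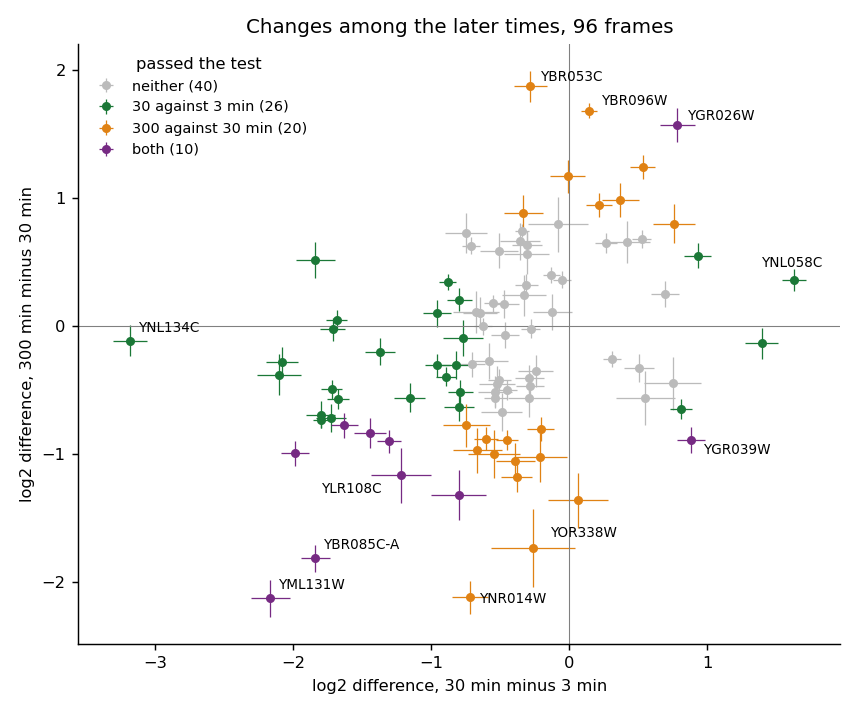
Log2 difference of 30 min minus 3 min (x axis) and of 300 min minus 30 min (y axis) for each of the 96 frames, with error bars of 1 SE from limma. Colours mark the comparison in which a frame passed the test: 10 in both, 26 between 3 and 30 min only, 20 between 30 and 300 min only and 40 in neither.

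In both intervals 10 frames passed, and all but 1 kept their direction. YML131W, YBR085C-A, YOR062C, YNL194C, YPL277C, YOR389W, YLR108C and YNL208W fell in both, and YGR026W rose in both. YGR039W turned, at 0.88 ± 0.10 between 3 and 30 min and at -0.89 ± 0.10 between 30 and 300 min. It was 0.13 and -0.04 at 3 min in cultures a and b, 1.03 and 0.82 at 30 min and 0.08 and -0.0039 at 300 min.

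The same intervals were also read in lists of named genes, which were not filtered by the rule. The members were chosen by their differences from 0 min, and split into higher and lower frames by the sign. Their counts and medians are therefore not on the same footing as those of the lists, and are set beside them as a description only. Of 30 genes of respiration, 19 fell and 1 rose between 3 and 30 min (median -1.14), and 1 fell and 1 rose between 30 and 300 min. Of 24 targets of Msn2 and Msn4, 11 fell between 3 and 30 min (median -0.65), and between 30 and 300 min 7 fell and 4 rose. None of 25 genes of ribosome biogenesis passed between 3 and 30 min, and 9 fell between 30 and 300 min (median -0.72). Against 0 min, the median of the 25 higher frames was 1.02 at 30 min and 1.37 at 300 min, where the median of the ribosome biogenesis genes was highest at 30 min, at 1.65, and was 0.75 at 300 min. The 71 lower frames had a median of -0.996 at 3 min and -1.85 at 300 min, where the Msn2 and Msn4 targets had -1.45 and -2.40, and the genes of respiration -1.57 and -2.56.

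The study also drew up a glucose signature, a list of genes that separates 2 classes of deletion mutants of the glucose pathways, on arrays other than those used here. The paper split it into genes up and genes down in the mutants of its "low glucose" group. It also followed both parts in this same time course, and reported the up part higher and the down part lower after glucose. The part of the signature marked as down holds 42 of the 499 unnamed frames, and 26 of these (61.9%) were among the 96. They make up 27.1% of the 96 and 5.20% of the list, where 8.36% of the 5276 genes were on it. The 96 were chosen by their response to glucose, and 1281 of the 5276 genes were past the same rule. How many of those are on either part of the signature was not counted, so these shares do not set unnamed frames apart from other responding genes. All but 1 of the 26 had a lower largest difference, among them YBR085C-A, YHR138C, YER079W, YLR345W, YOR062C and YCL042W, and the exception was YNL208W. The part marked as up holds 26 unnamed frames, 9 of which (34.6%) were among the 96, all of them higher: YBL081W, YCR051W, YCR102C, YGL230C, YJR124C, YLR419W, YLR460C, YMR209C and YPL245W. They make up 9.38% of the 96 and 2.40% of the list, where 6.14% of the 5276 genes were on it. Of the 26 members on the down list, 10 fell and none rose between 3 and 30 min. Of all 96 members 30 fell and 6 rose then, and of all genes 7.21% fell and 2.82% rose. Between 30 and 300 min, 4 of the 26 fell and 2 rose. Of all 96 members 21 fell and 9 rose in that interval, and of all genes 6.14% fell and 8.17% rose. Of the 9 on the up list, 2 fell and 1 rose in the earlier interval, and 1 fell and none rose in the later one. The other members on the down list were YBR053C, YDL124W, YER053C-A, YER121W, YIL055C, YJL068C, YJL070C, YJR096W, YJR149W, YKL091C, YKL162C, YLR152C, YMR090W, YMR181C, YMR196W, YNL115C, YNL190W, YOL153C and YOR289W.

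A systematic name is also a place, and several frames could be read against their neighbours in the R64 gene order. In that order 3 members overlap a neighbouring gene. YLL053C overlaps AQY2, a water channel, YCL042W overlaps GLK1, glucokinase, and YJR079W overlaps BNA2, an enzyme of NAD synthesis, and AIM24. Their courses followed that of the neighbour on the same strand, with r = 0.997 for AQY2, 0.978 for GLK1 and 0.985 for BNA2 over 9 time means, and -0.117 for AIM24, which lies on the opposite strand. YLL053C was at -2.06 at 110 min, and AQY2 was at -1.67 then. YCL042W was at -2.98 at 150 min and GLK1 at -3.14, and YJR079W was at -1.96 at 300 min and BNA2 at -3.03. Whether each probe binds the RNA of the overlapping gene as well was not tested.

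**Figure D4:**
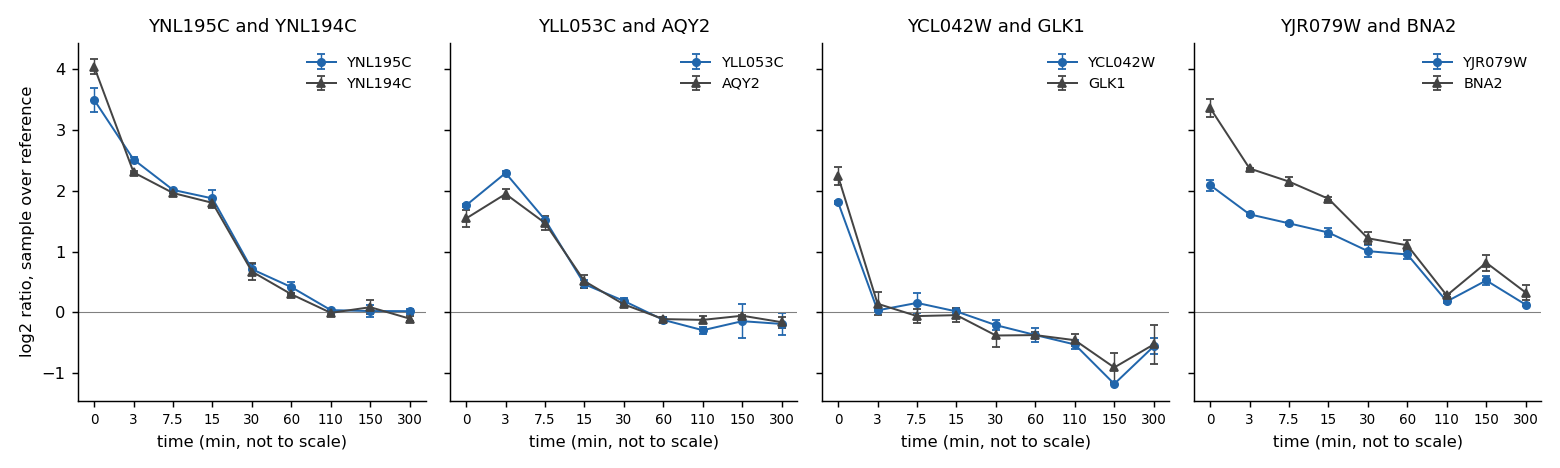
Log2 ratio of sample to reference (y axis) at each time (x axis, not to scale) for 4 members (blue circles) and a neighbouring gene on the same strand (grey triangles), the mean of the cultures with bars that run to the value of each culture. YNL195C and YNL194C lie side by side, and the other 3 members overlap the neighbour shown; the courses correlated at 0.978 to 0.997.

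All measured neighbours were also counted, the overlapping ones included. Of 36 measured neighbours on the opposite strand that share the upstream region with a member, 10 (27.8%) were past the rule in the same direction, and of 509 such neighbours of other genes past the rule 86 (16.9%) were. Of 94 neighbours on the same strand, 23 (24.5%) were, against 187 of 1060 (17.6%) for the other genes. For the 37 neighbours that face a member from downstream the share was 16.2%, against 12.4% of 532. The median correlation between the courses of gene and neighbour did not follow the shares in every class. For neighbours that share the upstream region it was lower for members, at 0.132 against 0.376 for the other genes. On the same strand it was 0.405 against 0.133, and for neighbours that face from downstream 0.119 against 0.064. No test was made of these shares and medians, since the members were chosen by the same measure.

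Single cases show both kinds. YLR108C shares its upstream region with AHP1, a peroxiredoxin, and at 3 min YLR108C was at 2.13 and AHP1 at 2.02, but AHP1 was still at 2.39 at 60 min, when YLR108C was at -0.11. YBR053C and YRO2 also lie head to head, and each had its lowest difference early, YBR053C with -2.03 at 30 min and YRO2 with -6.15 at 15 min. At 300 min they were at -0.15 and -4.21. RBD2 lies between members of opposite direction. YPL245W, higher by 1.93 at 300 min, followed RBD2 (1.92, r = 0.965), and YPL247C, at -1.58 then, did not (r = -0.812). The short frame YOR302W precedes CPA1, which encodes a subunit of carbamoyl phosphate synthetase, on the same strand, and was at -1.53 at 150 min where CPA1 was at -2.15 (r = 0.973). Whether the probe of YOR302W reads an RNA separate from that of CPA1 was not tested.

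Of the 4560 pairs of members, 59 had time means within 0.4 of each other at all 9 times, a limit chosen after the values had been seen. The pair with the highest correlation among these was YPL277C and YOR389W, and another was YHR140W and YJR096W (r = 0.997). YPL277C and YOR389W lie on different chromosomes, and their differences from 0 min were never more than 0.108 apart (r = 0.999 over 9 time means), with -1.75 and -1.76 at 150 min. The early-peaking frames YLR460C and YCR102C were also such a pair (r = 0.974). Probe sequences were not used here. Whether the probe of 1 frame also detects the RNA of the other was not tested, for YPL277C and YOR389W or for YLR460C and YCR102C.

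The limit of 1.5 cuts through a continuous range. The members nearest to it were YKL069W and YGR039W at 1.51, YCR023C at 1.52 below 0 min, YMR209C at 1.52 and YDL038C at 1.52, and the frames just short of it were YGL193C at 1.49, YLR031W at 1.48, YGR126W at 1.47, YMR027W at 1.45 and YIL168W at 1.44 in size. With a limit of 1, 188 unnamed frames would be included, and with a limit of 2, 48.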

How the data were processed

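The authors quantified the spots of each array as mean intensities, which were deposited as scanner output, and normalised them by print-tip loess without background subtraction to the deposited log2 ratios. The submitters' processing notes name limma 2.12.0. Members were found in the deposited log2 ratios, with the 2 spots of a probe averaged. For the tests, log2 ratios were recomputed from the intensities (print-tip loess, span 0.4, control and saturated spots at weight 0) in R 4.3.3 with limma 3.58.1, turned to sample over reference by dye label. They correlated with the deposited ones at 0.99977 or more. A model with 1 coefficient for each later time (lmFit, eBayes) was fitted to 16 arrays, with 8 residual degrees of freedom, after tests on simulated data. Gene-specific dye bias was not corrected.

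The members, the lists and the tests were chosen with earlier results of these data known. Frames were named by rule: the 12 highest and 12 lowest differences, those in both directions, the 5 on each side of the limit, up to 6 with the largest change in each direction of a test, those that overlap a gene or lie beside another member, those on the glucose signature, and the 3 most similar named genes of the top 3 each way. Other frames were named after their values had been seen. The array numbers a and b stand for cultures sampled over time, which pairs the arrays. Deviations from the time means correlated within cultures at 0.379 to 0.902. Each culture kept 1 dye on the later arrays, so these correlations cannot tell a pairing by culture from a dye effect on single probes. With 2 cultures, p-values measure the spread between these cultures only. Probes without a symbol (1062) stayed in the tests, 19 mitochondrial genes and the transposon frames did not. Alternatives were another background correction, 1 loess curve per array, the deposited ratios, a filter on dim probes, a shift to the external controls, the culture as a block and leaving out each array. Promoter and probe sequences were not analysed here.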

Additional observations from a re-analysis of the deposited data

How the results depend on the processing

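The number of unnamed frames that met the rule was 34 with the 0 min array of culture a read by its dye label, 188 with a limit of 1 and 48 with a limit of 2. It was between 94 and 101 with culture b alone, with ratios from the scanner intensities, with normexp, with 1 loess curve per array, with the shift to external controls and with updated symbols. With 1 loess curve per array 82 of the 96 were still included, and with the shift 71. In the tests among the later times, the shift gave 16 frames that rose between 30 and 300 min in place of 9. The other counts stayed within 1.5 times of those reported under all other alternatives, and no result changed sign. With the culture as a block (replicate block) 95 frames changed among the later times, in place of 89. Between 3 and 30 min 6 rose and 30 fell, and between 30 and 300 min 10 rose and 21 fell, so the paired fit moved no count by more than 1.5 times. Leaving out each array in turn gave 86 to 90 frames for the F test, 5 to 6 that rose and 25 to 31 that fell between 3 and 30 min, and 9 to 11 that rose and 17 to 20 that fell between 30 and 300 min. YGR026W was below the fold limit between 3 and 30 min with 1 loess curve per array, at 0.57. Testing only probes with a symbol, an alternative added after the data were seen, gave 89 frames for the F test.

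Differences from 0 min rest on 1 pair of arrays, and the dye label of 1 of these goes against its values. No array was repeated with the dyes exchanged for the same RNA, so a dye effect on a single probe cannot be separated from a difference between cultures.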
